A study of Mus musculus with 9 samples.

Results

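Transcripts of 10 genes of the heat shock chaperone system were described across 9 RNA libraries from sorted mouse hippocampal neurons, namely Hspa1a, Hspa1b, Dnajb1, Hsph1, Hspa8, Hsp90aa1, Hsp90ab1, Bag3, Hspb1 and Hspd1. They were listed by name, looked up by Ensembl identifier, and make up 10 of the 51912 genes counted in each library. All 10 had a row in every table, and 9 of them reached a mean of 1 CPM (a count divided by its library total, on a common scale), the level from which genes are compared here. Hspb1, at a mean of 0.982 CPM, did not.

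The study asked how the dose of an adeno-associated virus vector alters the transcriptome of hippocampal pyramidal neurons in male mice of a C57BL/6 line in which the Camk2a promoter drives Cre recombinase. The vector, of serotype 5 (rAAV5-DIO-mCherry), makes the red fluorescent protein mCherry once Cre has acted on it. Doses of 2.88e+08, 2.88e+09 and 2.88e+10 vector genomes were injected, the lower dose serving as the control, so the control animals carried the same vector and the same Cre, and an uninjected group is not analysed here. After 3 weeks, ice-cold slices of 300 µm were cut, the hippocampus was digested with warm papain and triturated, dead cells were gated out with DAPI, and fluorescent cells were sorted. The labels name 3 groups with biological replicates but give no dose for any single library, and the mouse age and whether animals were pooled are not given. The deposited tables carry the letters H (S1001 to S1003), M (S1004 to S1006) and L (S1007 to S1009), which the labels do not explain. The letters are used below as names only. No dose is attached to them and no test between them is given. Differences are described by whether the 3 libraries of one letter all lay above or below the 3 of another.

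Heat shock proteins are molecular chaperones, which bind unfolded stretches of other proteins and help them fold, be moved or be degraded. Hsp70 proteins do this in cycles of ATP hydrolysis that J-domain proteins start and that nucleotide exchange factors such as Hsp110 and BAG proteins finish, and Hsp90 acts later on a narrower set of clients. In unstressed cells many chaperones are made constantly. Under heat, proteotoxic or dissociation stress the transcription factor HSF1 forms trimers, binds heat shock elements made of inverted GAA units, and raises the inducible set, of which Hspa1a and Hspa1b are the classical members. Mature neurons are known for a weak induction of inducible Hsp70 compared with glia.

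Total counts ran from 12136830 to 19151596 per library. The 3 H libraries stood close together. The chi-square per degree of freedom between the counts of 2 libraries was 2.67 to 5.14 among H libraries, against 24.3 to 33.6 among M libraries and 27.2 to 38.9 among L libraries. The H libraries thus differed by more than sampling noise (a value near 1) and were kept as separate libraries. Whether they are independent biological replicates is not clear from the files, so the main counts below that involve all 3 of them are also given with S1003 as the only H library. Pyramidal neuron markers were present throughout, the 5 genes Slc17a7, Neurod6, Camk2a, Nrgn and Gria2 summing to 4950 to 5175 CPM in H libraries, 2955 to 3218 CPM in M libraries and 5670 to 7583 CPM in L libraries. Markers of other cells were present too. The 9 microglia genes summed to 15536 to 16626 CPM in H libraries, 4293 to 5418 CPM in M libraries and 24.2 to 131 CPM in L libraries. The 3 plasma cell genes summed to 3207 to 3337 CPM in H libraries, 0.581 to 1.45 CPM in M libraries and 0.863 to 1.28 CPM in L libraries. The 5 oligodendrocyte genes summed to 481 to 508 CPM in H libraries, 72.2 to 123 CPM in M libraries and 27.8 to 52.4 CPM in L libraries, and the 4 astrocyte genes to 90.2 to 94.9, 34.2 to 82.3 and 11.3 to 45.3 CPM. Of 3 endothelial genes, Cldn5 and Cdh5 were at 0 or near it in every library, and Pecam1 was low but higher in all H libraries, the 3 genes summing to 1.07 to 2.38 CPM in H libraries, 0.218 to 0.552 CPM in M libraries and 0 to 0.431 CPM in L libraries. In such bulk samples, fewer cells of a type and less RNA per cell cannot be told apart. Where these markers move beside a chaperone below, their part in the result was not tested.

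The inducible Hsp70 pair lies on chromosome 17 and its promoters are shown because the pair spans the widest range of the 9 genes compared. Hspa1a (ENSMUSG00000091971, GRCm38 chr17:34969190-34972156, minus strand) and Hspa1b (ENSMUSG00000090877, chr17:34956436-34959238, minus strand) are separated by 9951 bases, and each has a single exon. The 250 bases before each start site follow, from RefSeq on GRCm38.p6, read on the minus strand, with the 2-unit heat shock element letters in capitals (chr17:34972157-34972406 for Hspa1a and chr17:34959239-34959488 for Hspa1b).
Hspa1a: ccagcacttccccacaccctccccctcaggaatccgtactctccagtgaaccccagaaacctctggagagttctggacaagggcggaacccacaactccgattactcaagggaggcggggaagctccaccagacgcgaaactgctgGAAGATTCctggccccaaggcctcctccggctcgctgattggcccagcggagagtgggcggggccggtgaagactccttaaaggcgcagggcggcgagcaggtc
Hspa1b: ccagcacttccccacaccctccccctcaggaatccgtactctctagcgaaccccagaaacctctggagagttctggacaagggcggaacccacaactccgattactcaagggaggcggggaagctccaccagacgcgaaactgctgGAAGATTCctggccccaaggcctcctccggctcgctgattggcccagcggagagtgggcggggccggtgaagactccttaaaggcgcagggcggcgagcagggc

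The match lies at the same place in both, from base -104 to base -97. Over the 300-base RefSeq windows (250 bases before and 50 after the start), the pair differed at 4 positions, written with the Hspa1a base first and counted from 1 at the 5′ end of the window as C44T, T47C, T249G and C276T. The first 3 of these lie before the start site. The RefSeq table held 7 of the 10 genes, in 10 windows, and Hspa8, Hsp90aa1 and Hsp90ab1 were not among them. A 2-unit element, GAANNTTC or TTCNNGAA, each its own reverse complement, was found in 6 of the 7 genes, all but Dnajb1, while 17.0% of the 27025 genes in the table held one. A 3-unit element, GAANNTTCNNGAA or its reverse complement TTCNNGAANNTTC, which contains overlapping 2-unit matches, was found in Hspd1 and Hsph1, 2 of the 7 genes, against 0.662% of all genes. Matches describe letters and are not evidence of binding.

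Stretches of 3 more promoters are shown, since they hold the matches of the mitochondrial, Hsp110 and small heat shock protein genes that lie before a start site. They are 53 bases of the Hspd1 promoter (second RefSeq start, chr1:55088039-55088091, minus strand), 48 bases of the Hsph1 promoter (first RefSeq start, chr5:149636342-149636389, minus strand) and 48 bases of the Hspb1 promoter (chr5:135887782-135887829, plus strand), with matches in capitals.
Hspd1: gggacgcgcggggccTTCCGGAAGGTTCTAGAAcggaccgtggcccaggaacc
Hsph1: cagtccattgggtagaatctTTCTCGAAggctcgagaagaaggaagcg
Hspb1: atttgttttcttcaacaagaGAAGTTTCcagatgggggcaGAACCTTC

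In Hspd1 the capitals run from base -144 to base -127, counted from the second RefSeq start, and join overlapping 3-unit matches into 1 unbroken array. The first RefSeq start of Hspd1, at chr1:55088243, lies upstream of this array, so the array is after that start. The 3-unit match of Hsph1 and the match of Bag3 lie after the start site and are not printed.

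**Figure D1:**
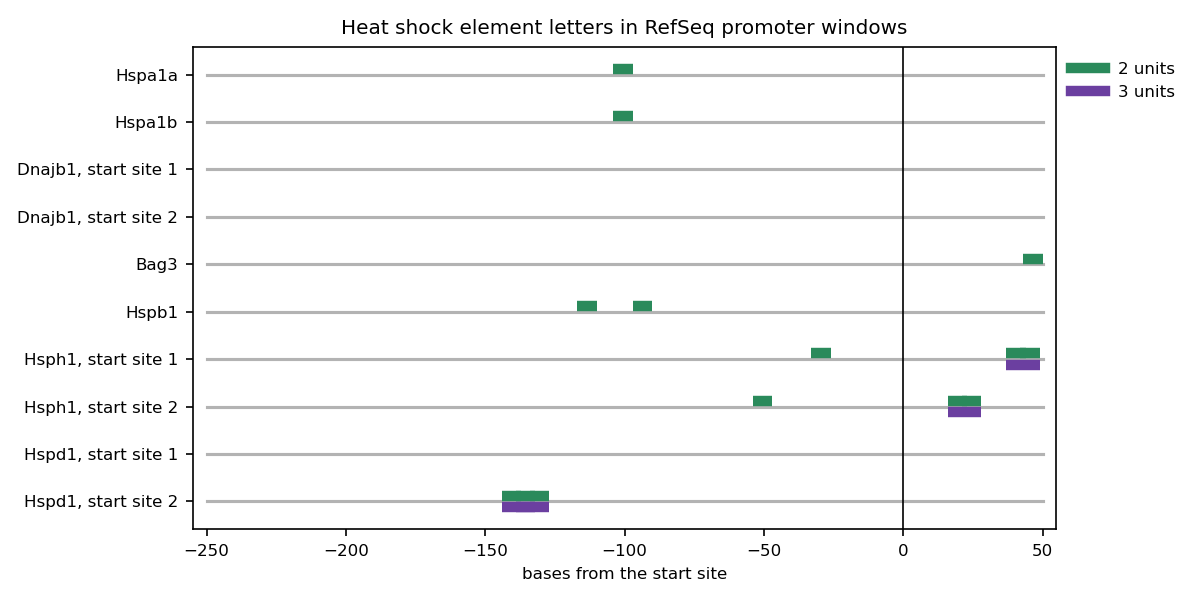
Heat shock element letters in the 10 RefSeq promoter windows of 7 chaperone genes, plotted by distance in bases from the start site (black line); grey lines are the windows, green bars 2-unit matches and purple bars 3-unit matches. Hspa1a and Hspa1b carry a match at the same distance, and both Dnajb1 windows and the first Hspd1 window carry none.

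Across the 9 libraries the members did not share 1 course. Hspa1a, Hspa1b and Dnajb1 were highest in the 3 M libraries, each M library lying above all 6 others. That pattern held for 3 of the 9 members compared, and for 4.72% of the 14787 genes that reached 1 CPM on average. Hsp90aa1, Hspa8 and Hspd1 were lowest in the 3 H libraries, each H library lying below all 6 others, which again was 3 of the 9 members, against 11.8% of all genes. A spread of at least 2-fold, taken as the second highest over the second lowest library on log2(CPM + 1), was reached by Hspa1a, Hspa1b and Dnajb1, 3 of 9 members, and by 26.4% of all genes, so the members as a list did not stand far from the background in spread.

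**Figure D2:**
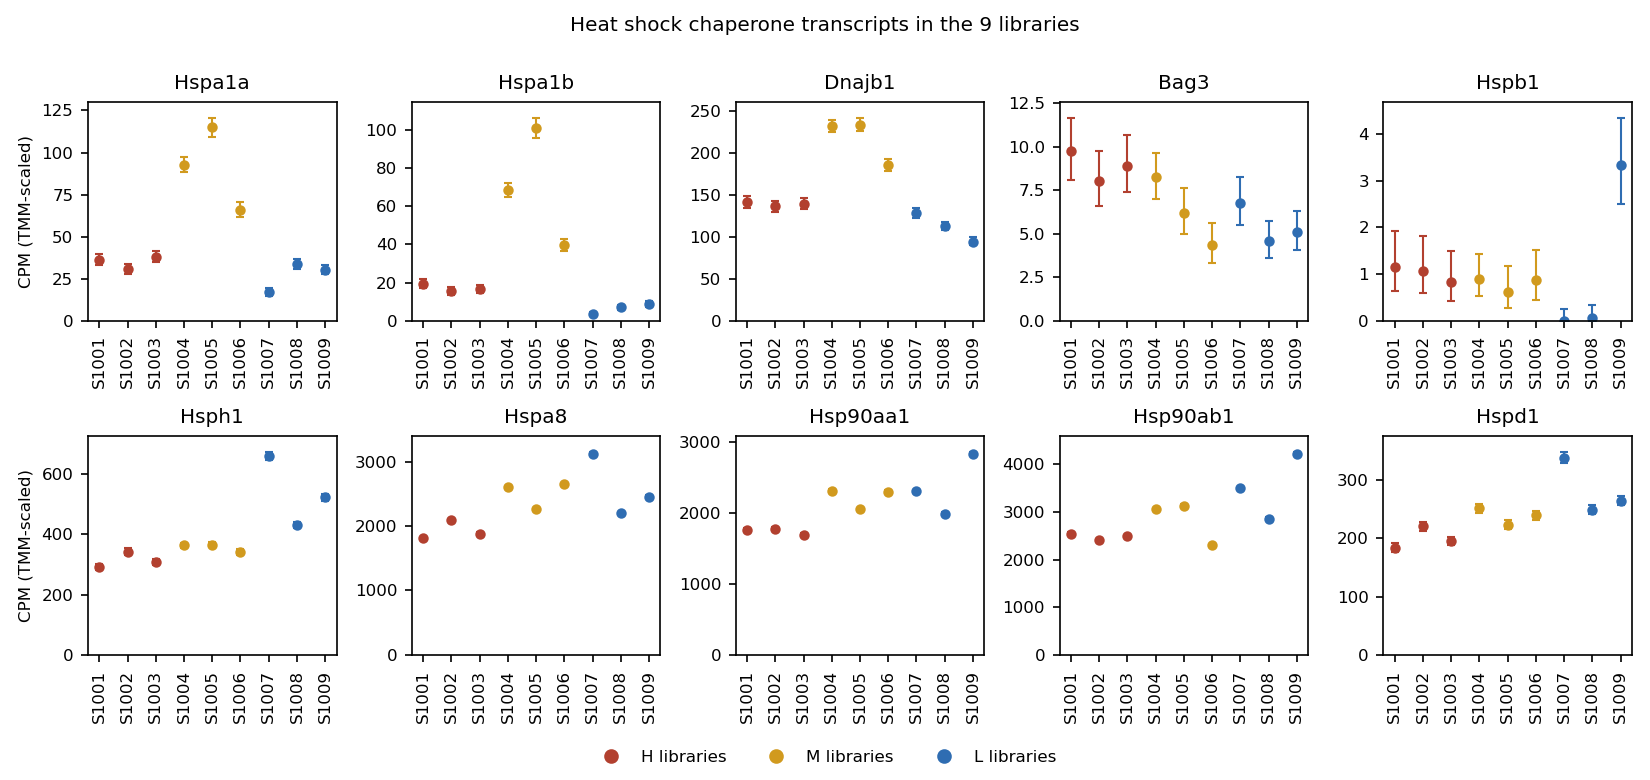
Level of each of the 10 chaperone genes in the 9 libraries, in CPM on a linear axis from 0; points are libraries coloured by file letter (H, M, L from left to right) and bars are exact Poisson 95% intervals, which cover counting error only. Hspa1a, Hspa1b and Dnajb1 peak in the M libraries, Hsph1 is highest in the L libraries, and Hspb1 is highest in a single library, S1009.

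Hspa1b, an inducible cytosolic Hsp70, had 19.4, 15.6 and 16.5 CPM in H libraries, 68.4, 101 and 39.5 CPM in M libraries and 3.57, 7.01 and 8.75 CPM in L libraries. The 3 letters did not overlap at any point. The medians differed by 3.12 (M over L) and by 1.13 (H over L) on the log2(CPM + 1) scale, the scale of all differences below. Counting error was small beside these gaps, since the lowest value, 53 counts in S1007, has a 95% interval of 2.67 to 4.66 CPM. Within a letter the values still varied 2.55-fold among M libraries and 2.45-fold among L libraries.

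Hspa1a, its near-identical neighbour, had 36.4, 30.5 and 38.0 CPM in H libraries, 92.8, 115 and 66.1 CPM in M libraries and 17.0, 33.6 and 30.4 CPM in L libraries. The M libraries again lay above all others, with a median difference of 1.58 over L, while H and L libraries overlapped through S1002 and S1008. Without S1008 or without S1002 the H libraries lay above the L libraries, with median differences of 0.66 and 0.28.

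The coding sequences of the pair differ at 8 of 1923 aligned positions, and 47.1% of the 100-base windows of the Hspa1a transcript are found unchanged in Hspa1b, so how counts fall to one or the other is uncertain. The sources used here do not say how reads matching both were counted. Hspa1a also overlaps Gm20481 on the opposite strand. The sum of both genes does not depend on that division, but it would be too low if reads matching both were left out. It was 55.8, 46.1 and 54.6 CPM in H libraries, 161, 216 and 106 CPM in M libraries and 20.5, 40.6 and 39.1 CPM in L libraries, and no letters overlapped. The share of the summed counts given to Hspa1b also differed, at 30.3 to 34.8% in H libraries, 37.4 to 46.7% in M libraries and 17.2 to 22.4% in L libraries. How much of this lies in the assignment of shared reads was not tested.

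Dnajb1, the inducible Hsp40 that feeds clients to Hsp70, followed the same order of letters. It had 141, 136 and 139 CPM in H libraries, 232, 234 and 185 CPM in M libraries and 128, 113 and 94.4 CPM in L libraries. No letters overlapped, with median differences of 1.03 (M over L) and 0.30 (H over L). Its spread, 2.05-fold, lay just past the 2-fold threshold, and the nearest member below it was Bag3, at 1.78-fold. It lay under the threshold without S1004, S1005, S1008 or S1009, at log2 values of 0.71, 0.71, 0.85 and 0.85. Of the 9 members, 3 lay higher in all M than in all L libraries (Hspa1a, Hspa1b and Dnajb1), against 17.0% of all genes.

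The immediate early genes, a set that enzymatic dissociation is known to induce, are given beside these members. The 7 genes Fos, Jun, Junb, Egr1, Ier2, Atf3 and Dusp1 summed to 4041 to 4317 CPM in H libraries, 3402 to 4565 CPM in M libraries and 626 to 1718 CPM in L libraries. H and M libraries overlapped in this sum and both lay above the L libraries, whereas Hspa1a, Hspa1b and Dnajb1 each separated H from M. Fos and Dusp1, 2 of the 7, lay higher in all M than in all other libraries, against 4.72% of all genes. Egr1 and Atf3, also 2 of the 7, lay higher in all H than in all M libraries, against 23.0% of all genes. The microglia sum was ordered H, M, L from high to low, as were 8 of its 9 genes (Tmem119 overlapped between M and L libraries), an order that Hspa1a, Hspa1b and Dnajb1 did not follow. The part of either set in the chaperone levels was not tested.

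**Figure D3:**
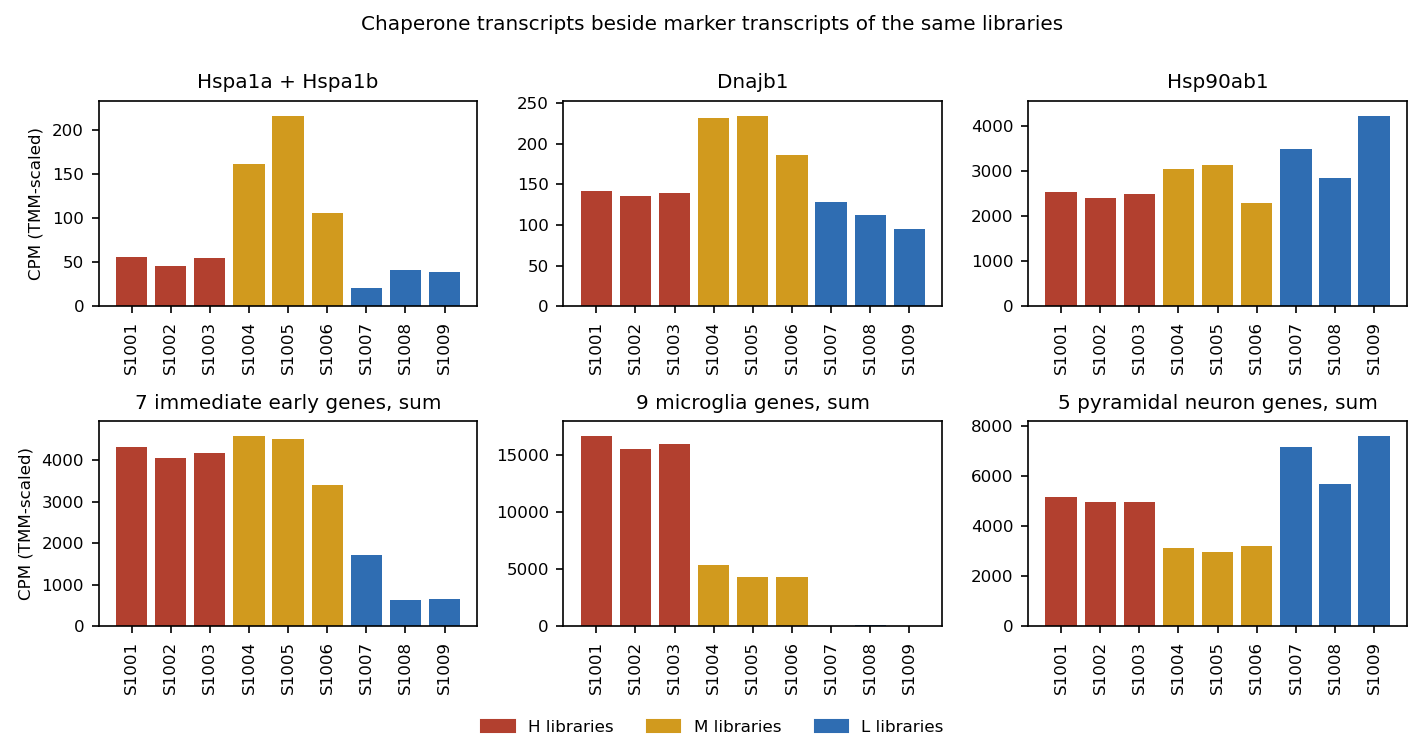
Summed Hspa1a and Hspa1b, Dnajb1 and Hsp90ab1 (top) beside the summed immediate early, microglia and pyramidal neuron genes (bottom) in the same 9 libraries; bars are libraries in CPM on linear axes from 0, coloured by file letter. Hspa1a with Hspa1b, and Dnajb1, peak in M libraries, the immediate early sum is high in H and M libraries, the microglia sum is highest in H libraries, and the pyramidal sum is lowest in M libraries.

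Bag3, a co-chaperone that exchanges nucleotide on Hsp70 and directs clients to autophagy, was scarce. It had 9.75, 8.07 and 8.92 CPM in H libraries, 8.26, 6.21 and 4.36 CPM in M libraries and 6.80, 4.57 and 5.12 CPM in L libraries. The H libraries lay above the L libraries, with a median difference of 0.70, but counting error spans part of that gap: 95% intervals were 6.60 to 9.76 CPM in S1002 (H) and 5.54 to 8.26 CPM in S1007 (L). M libraries overlapped both. Without S1002 or without S1004 the H libraries also lay above the M libraries, by medians of 0.52 and 0.67. Bag3 overlaps 2610306O10Rik on the same strand, so part of its counts is uncertain. Together with Hspa1b and Dnajb1 it made 3 of 9 members higher in all H than in all L libraries, against 24.7% of all genes.

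Hsph1, the Hsp110 that acts as an exchange factor for Hsp70, was highest in the L libraries. It had 291, 343 and 309 CPM in H libraries, 364, 366 and 343 CPM in M libraries and 660, 431 and 523 CPM in L libraries. Every L library lay above every other library, and H and M libraries met at 343 CPM. The median difference was -0.76 for H over L and -0.52 for M over L. Hsph1 was the 1 member of 9 lower in all M than in all L libraries, against 15.5% of all genes. Without S1002 the H libraries also lay below the M libraries (median difference -0.28), and likewise without S1006 (-0.24).

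The abundant cytosolic chaperones had a narrow spread, 1.41-fold for Hspa8, 1.31-fold for Hsp90aa1 and 1.45-fold for Hsp90ab1. Hspa8, the constitutive Hsp70, had 1810, 2088 and 1877 CPM in H libraries, 2602, 2259 and 2645 CPM in M libraries and 3119, 2202 and 2457 CPM in L libraries. Hsp90aa1, the stress-responsive Hsp90 isoform, had 1759, 1774 and 1696 CPM in H libraries, 2309, 2053 and 2300 CPM in M libraries and 2304, 1989 and 2832 CPM in L libraries. Both were lower in every H library than in any other, while M and L libraries overlapped. For Hspa8 the medians differed by -0.39 (H over L) and -0.47 (H over M), and for Hsp90aa1 by -0.39 (H over L) and -0.39 (H over M). Hspa8 contains the small nucleolar RNA genes Snord14c, Snord14d and Snord14e on its own strand.

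Hsp90ab1, the constitutive Hsp90 isoform, had 2543, 2418 and 2501 CPM in H libraries, 3062, 3135 and 2299 CPM in M libraries and 3505, 2860 and 4227 CPM in L libraries. H libraries lay below L libraries, with a median difference of -0.49, and overlapped the M libraries through S1006 alone. Without S1006 they lay below the M libraries too, by a median of -0.31. Hspd1, the mitochondrial Hsp60 chaperonin, had 184, 221 and 196 CPM in H libraries, 252, 223 and 240 CPM in M libraries and 339, 249 and 265 CPM in L libraries. Its H libraries lay below all others, S1002 and S1005 being separated by only 221 against 223 CPM, a gap that closed with DESeq2 size factors. Between M and L libraries both genes overlapped, through S1008. Without it the M libraries lay below the L libraries for Hsp90ab1 (median difference -0.33) and Hspd1 (-0.32), and for Hspd1 also without S1004 (-0.19). Hspd1 shares a divergent start with Hspe1, its co-chaperonin, and their annotated 5′ ends overlap by 112 bases.

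Together, 5 of the 9 members were lower in all H than in all L libraries (Hsph1, Hsp90aa1, Hsp90ab1, Hspa8 and Hspd1), against 26.2% of all genes at 1 CPM or more and 34.2% of genes at 10 CPM or more. Compared with M libraries, 6 of the 9 (Hspa1a, Hspa1b, Dnajb1, Hsp90aa1, Hspa8 and Hspd1) were lower in all H libraries, against 21.3% of all genes, and 0 of 9 were higher, against 23.0%. All of the 9 but Bag3 had a mean above 10 CPM, a level at which a share is given here only for H below L libraries. With S1003 as the only H library, which makes separation easier by construction, 5 members were lower and 4 higher in H than in all L libraries. In the same setting 7 were lower and 1 higher in H than in all M libraries, 4 were lowest in H, and 3 still had the M peak. Shares of all genes were not computed with S1003 alone, so these counts cannot be set against the shares above. Beside these values, the microglia, plasma cell, oligodendrocyte and astrocyte sums were highest in H libraries and the inhibitory neuron sum (Gad1, Gad2 and Slc32a1) was lowest there, at 58.9 to 69.1 CPM against 183 to 358 CPM in M libraries and 212 to 797 CPM in L libraries. Their part in the lower H values was not tested. The median over the 9 members was -0.39 for H over L, 0.08 for M over L and -0.39 for H over M, beside -0.03, 0.00 and 0.00 over all 14787 genes. The comparisons share libraries and are not independent of each other.

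**Figure D4:**
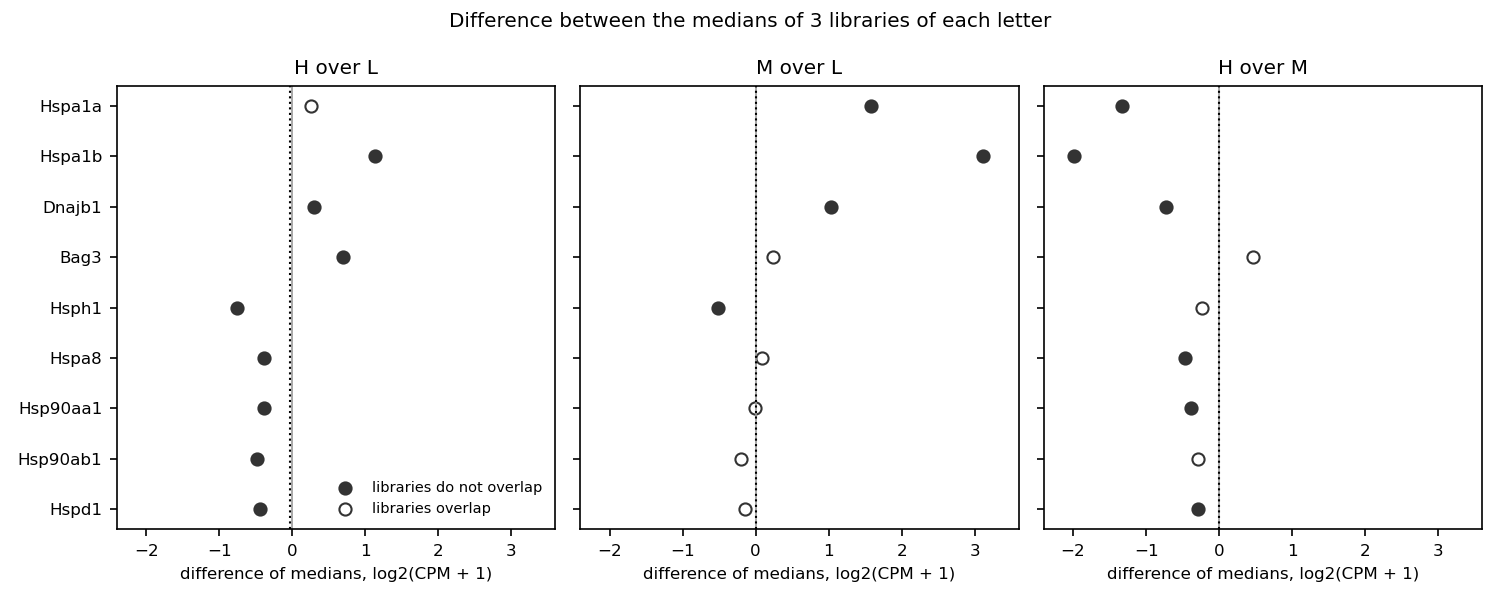
Difference between the medians of 3 libraries of each letter for the 9 chaperone genes that reached 1 CPM on average, on the log2(CPM + 1) scale; filled points are genes whose libraries do not overlap between the letters, open points those that overlap, and the dotted line is the median over all 14787 genes. Hspa1a, Hspa1b and Dnajb1 lie right of 0 for M over L and left of 0 for H over M, and Hsph1 lies left of 0 for both H over L and M over L.

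Hspb1 (Hsp27), a small heat shock protein that holds unfolded proteins without ATP, was close to the detection limit in all but 1 library. It had 14, 14 and 11 counts in H libraries, 17, 9 and 12 counts in M libraries and 0, 1 and 54 counts in L libraries. S1009 alone reached 3.33 CPM (95% interval 2.50 to 4.34 CPM), and the 0 counts of S1007 allow up to 0.202 CPM by the floor of 3 counts and 0.248 CPM by the exact 95% interval. H and M libraries lay between 0.621 and 1.15 CPM, and the L libraries spanned the whole range. S1009 was also the highest library for Hsp90aa1, at 2832 CPM, and Hsp90ab1, at 4227 CPM, and the lowest for Dnajb1, at 94.4 CPM. In Hspa1a and Hspa1b it lay within the range of the other libraries.

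Levels can be set beside each other between genes only per transcript length, for which the authors' deposited FPKM (counts divided by gene length and library total) were used. By median FPKM over the 9 libraries the order was Hsp90ab1 (960), Hspa8 (547), Hsp90aa1 (546), Hspd1 (93.0), Hsph1 (49.7), Dnajb1 (43.5), Hspa1a (12.3), Hspa1b (5.91), Bag3 (2.56) and Hspb1 (0.86). The levels of Hspa1a and Hspa1b depend on how reads matching both were counted, which is not given. The ranges of Hsp90ab1 and Hspa8 did not overlap, nor did those of Hsp90aa1 and Hspd1, and all other neighbours overlapped. Within single libraries the order was firmer for some of these. Hspd1 was above Hsph1, Dnajb1 above Hspa1a, and Hspa1a above Hspa1b in 9 of 9 libraries, whereas Hspa8 was above Hsp90aa1 in 7 and Hsph1 above Dnajb1 in 4. Together the 10 genes took 0.679 to 0.705% of all counts in H libraries, 0.832 to 0.892% in M libraries and 0.794 to 1.00% in L libraries.

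Among pairs of members, the profiles of Hspa8 and Hspd1 were closest, with a root mean square difference of 0.10 between median-centred log2(CPM + 1) values over the 9 libraries. Outside the list, the 2 genes of at least 10 CPM most like each variable member were named in the same way from 9630 genes. For Hspa1a they were Ecm1, at a difference of 0.30, and Gas6, also at 0.30. For Hspa1b they were Blvrb, at 0.45, and Slc15a2, at 0.51. Nearest to Dnajb1 were Poldip3, at 0.12, and Aph1c, at 0.13. Hspb1, whose spread of 2.02-fold rests on very few counts, was nearest to Tpcn1 and Galnt17, each at 0.32. Gas6, for example, had 91.6, 94.9 and 94.5 CPM in H libraries, 217, 189 and 145 CPM in M libraries and 51.5, 79.2 and 56.7 CPM in L libraries, the same M peak.

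Of the wider chaperone network, 80 further genes in 7 lists were examined, of which 75 reached 1 CPM. The M peak of Hspa1a, Hspa1b and Dnajb1 was found in none of them, 0 of 75 lying higher in all M than in all other libraries, against 4.72% of all genes. The list counts below are to be read beside the shares of all genes already given, 24.7% higher and 26.2% lower in all H than in all L libraries. Every gene of the co-chaperone list and of the chaperonin and prefoldin list had a mean above 10 CPM. For them the larger share lower in H than in L libraries among genes at 10 CPM or more, given above, is the nearer comparison.

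Co-chaperones of Hsp70 and Hsp90 were lower in all H than in all L libraries for 12 of 18 genes (26.2% of all genes) and higher for 0 (24.7%), with a list median of -0.47. St13 (Hip), which steadies the Hsp70 client complex, had 277 to 311 CPM in H libraries, 308 to 500 CPM in M libraries and 326 to 347 CPM in L libraries. Stip1 (Hop), which hands clients from Hsp70 to Hsp90, had 217 to 227, 270 to 330 and 304 to 425 CPM in H, M and L libraries. The exchange factor Hspbp1, at 115 to 121, 149 to 221 and 202 to 228 CPM, and the Hsp90 activator Ahsa1, at 182 to 200, 233 to 293 and 249 to 382 CPM, had the widest spread of the list. H libraries were below M libraries too for 8 of the 18 genes (21.3% of all genes), Stip1, Hspbp1 and Ahsa1 among them.

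Subunits of the cytosolic chaperonin and of prefoldin, which fold actin and tubulin, were lower in all H than in all L libraries for 9 of 14 genes (26.2% of all genes) and higher for 0 (24.7%), with a list median of -0.39. Cct7 had 431 to 456 CPM in H libraries, 536 to 620 CPM in M libraries and 653 to 758 CPM in L libraries, without overlap between letters. Cct8 was ordered alike, at 349 to 397, 412 to 497 and 508 to 517 CPM. In all, 5 of the 14 genes (11.8% of all genes) were lower in all H than in all other libraries: Cct7, Cct8, Pfdn1, Pfdn2 and Pfdn6. The prefoldin subunits Pfdn1 and Pfdn4, shown for their wide spread, had their highest values in M libraries. Pfdn1 had 85.8 to 102, 174 to 183 and 124 to 175 CPM in H, M and L libraries, and Pfdn4 had 35.3 to 39.6, 48.6 to 64.8 and 27.4 to 50.4 CPM.

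Of 16 J-domain proteins other than Dnajb1, 1 was higher (24.7% of all genes) and 6 were lower (26.2%) in all H than in all L libraries. Between M and L libraries, 0 were higher (17.0% of all genes) and 5 lower (15.5%) in all M libraries. Dnaja1 had 389 to 444 CPM in H libraries, 458 to 513 CPM in M libraries and 452 to 573 CPM in L libraries. Dnaja2, like Dnaja1 a partner of Hspa8, had 264 to 288, 232 to 253 and 266 to 344 CPM in the same order. Dnaja4 was lowest in the M libraries, with 46.2, 47.2 and 47.1 CPM in H libraries, 11.9, 9.86 and 38.5 CPM in M libraries and 101, 64.4 and 73.6 CPM in L libraries. Its lowest values were those of S1004 and S1005, the same libraries in which Hspa1a, Hspa1b and Dnajb1 were highest. Dnajb5 had 88.4 to 90.3 CPM in H libraries, 37.7 to 44.7 CPM in M libraries and 54.5 to 151 CPM in L libraries, so it too was lowest in the M libraries. Among these, however, Dnajb5 was lowest in S1006, the M library with the least Dnajb1.

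Other Hsp70 and Hsp110 genes (7 of 9 at 1 CPM or more) were higher in all H than in all L libraries for 1 (24.7% of all genes) and lower for 3 (26.2%). Mitochondrial Hspa9 had 202 to 224 CPM in H libraries, 186 to 198 CPM in M libraries and 222 to 267 CPM in L libraries. Hspa4l, of the Hsp110 family, had 140 to 149, 157 to 201 and 163 to 215 CPM. Hspa2, at 42.6 to 47.4, 41.2 to 60.2 and 62.6 to 97.7 CPM, and Hspa12a, at 106 to 107, 103 to 121 and 130 to 164 CPM, were highest in the L libraries. Of the mitochondrial and endoplasmic reticulum chaperones, 1 of 11 was higher (24.7% of all genes) and 4 were lower (26.2%) in all H than in all L libraries. Hspa5 (BiP), which marks the unfolded protein response, had 819 to 908, 572 to 948 and 617 to 1072 CPM, and letters overlapped. The lectin chaperone Canx had 581 to 635, 651 to 795 and 601 to 657 CPM, and the mitochondrial disaggregase Clpb had 50.6 to 53.2, 45.6 to 55.9 and 69.0 to 78.3 CPM.

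HSF1 is activated by trimer formation, which transcript levels do not show. Of 5 genes for the heat shock factors and their binding protein, 0 were higher (24.7% of all genes) and 3 were lower (26.2%) in all H than in all L libraries. Hsf1 had 45.9 to 49.2 CPM in H libraries, 43.5 to 49.4 CPM in M libraries and 51.1 to 73.1 CPM in L libraries. Hsbp1, which binds HSF1 trimers, had 418 to 444, 662 to 727 and 504 to 672 CPM. Hsf2 had 33.4 to 36.9, 17.2 to 61.2 and 43.9 to 47.3 CPM, and Hsf5, at 0 to 2.55 CPM, was near the detection limit. Small heat shock proteins other than Hspb1 were scarce, 4 of 7 reaching 1 CPM. Cryab, known from oligodendrocytes and astrocytes, had 31.5 to 35.3, 41.1 to 51.9 and 21.1 to 52.6 CPM. Hspb3 had 3.53 to 5.41, 0.363 to 1.65 and 1.46 to 3.14 CPM, Hspb6 had 3.28 to 4.22, 3.42 to 4.00 and 0.123 to 4.26 CPM, and Hspb8 had 0.305 to 0.574, 1.67 to 2.34 and 0.185 to 2.38 CPM.

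**Figure D5:**
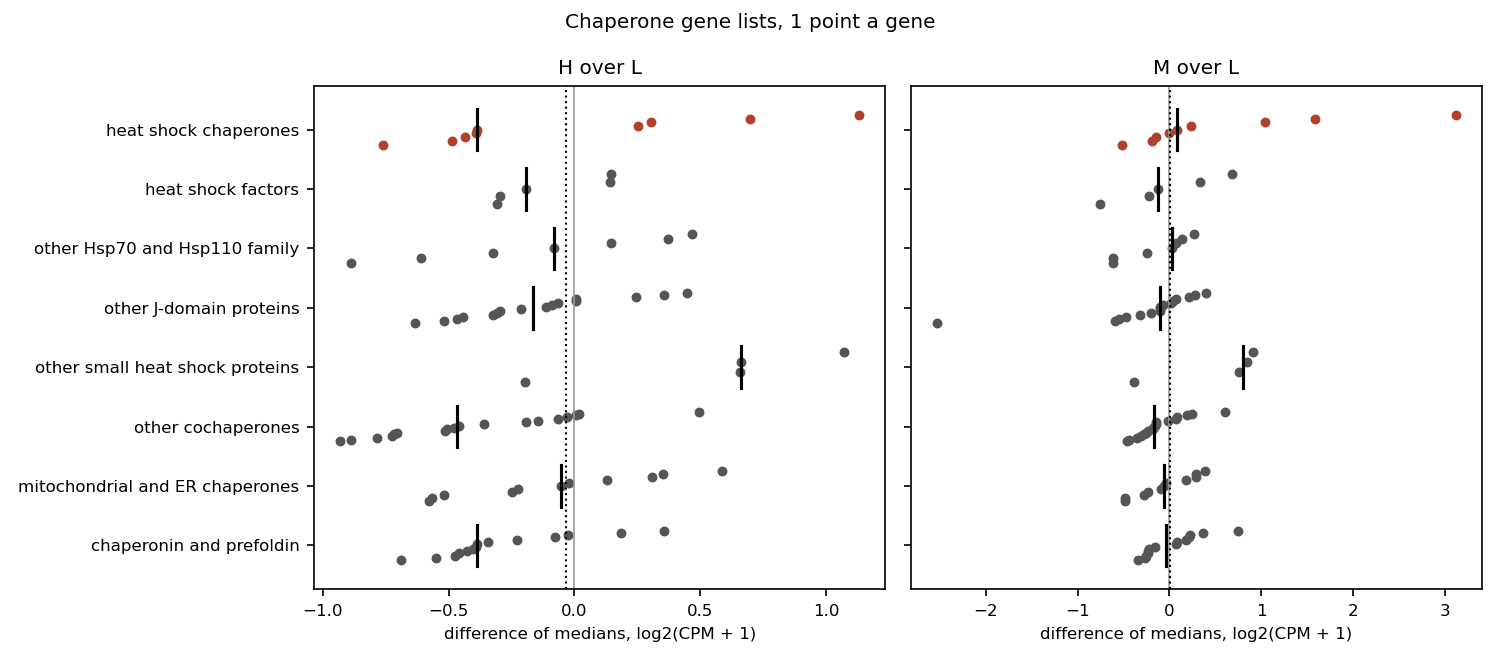
Difference between letter medians on the log2(CPM + 1) scale for the chaperone genes of interest (red) and for 7 lists of related genes (grey), 1 point a gene with a mean of at least 1 CPM; black bars are list medians and the dotted line is the median over all 14787 genes. For H over L the co-chaperone and chaperonin lists lie mostly left of 0, and for M over L the farthest right point is Hspa1b at 3.12.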

How the data were processed

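RNA-seq was measured in 9 libraries. For every Ensembl gene and library the deposited tables hold, per the file headers, the raw count and the FPKM of the authors. Tools in the submitters' processing notes are HTSeq 0.6.1, HISAT2 2.0.1, Trimmomatic 0.30 and bcl2fastq 2.17.1.14, with mm10 as build. Of their roles, the strand setting and the annotation release nothing is given in the sources used here. Symbols and coordinates came from GENCODE M21 (51633 of 51912 identifiers, 99.46%) and promoters from RefSeq GRCm38.p6.

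CPM were computed from the deposited counts and TMM-scaled totals (edgeR 4.0.16, R 4.3.3). A pseudocount of 1 CPM and a minimum mean of 1 CPM were used, and a spread of 2-fold was the threshold. Python 3.11.15, numpy 2.4.6, pandas 2.3.3, scipy 1.17.1 and matplotlib 3.10.9 did the rest, tested on simulated data. The labels assign 0 of 9 libraries to a group, so no differential test was run. FPKM served only for levels between genes and as an alternative. Exact Poisson 95% intervals and the floor of 3 counts cover counting error only, and total counts set their width.

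Named were all members, of each related list the 2 genes of highest mean and the 2 of widest spread, and the 2 genes most like each member of at least 2-fold spread. The members and lists were chosen with earlier results of these data known. Alternatives covered scaling (total counts, DESeq2 1.42.0 size factors, totals without 488 mitochondrial, immunoglobulin, microglial and MHC genes), FPKM, pseudocount, minimum level, full range, summed Hspa1 genes and left-out libraries.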

Additional observations from a re-analysis of the deposited data

Results flagged for a closer look

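Hspb1 in S1009 stood apart from the other 8 libraries. Its gap to the next library was 0.655 of the whole range on the CPM scale, above Dixon's 95% critical value for 9 values. It rests on 54 counts, against 0 to 17 counts in the others. About 1 in 20 sets of normally distributed values is set apart by chance, and the rule was applied to each of the 10 members. Counts this low need not follow that distribution.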

How the results depend on the processing

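None of the differences of medians that separated letters changed sign under the alternatives run, and the 3 members with the M peak (Hspa1a, Hspa1b and Dnajb1) counted 3 in each of them. With total counts and with FPKM, members lower in all M than in all L libraries were 2 instead of 1, Hspd1 being added. With the highest over the lowest library, a measure that can only widen the spread, 5 members passed 2-fold instead of 3. Shares of all genes were recomputed only for the minimum level, so the counts under the other alternatives have no share beside them. Without both S1001 and S1002 (chosen after seeing the data), 1 member was higher in H than in all M libraries instead of 0. Leaving out 1 library at a time gave 0 to 1 members higher in all H than in all M libraries, 1 to 3 lower in all M than in all L libraries, and 3 to 5 lowest in all H libraries; fewer libraries make separation easier by construction. The Dnajb1 spread was 1.00 (log2) with FPKM, just under the threshold. With no minimum level, the share of all genes past 2-fold was 12.3% instead of 26.4%, since genes near 0 enter. No paired analysis was possible because the labels give the libraries no groups and no shared replicate numbers. Depth limits Bag3 and Hspb1, with at most 157 and 54 counts.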
